A study of Homo sapiens with 16 samples.

Results

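The genes of O-GlcNAc cycling and of the hexosamine pathway were examined for changed H3K27ac in LX-2 cells treated with an inhibitor of O-GlcNAc transferase. They are the 10 genes OGT, OGA, GFPT1, GFPT2, GNPNAT1, PGM3, UAP1, NAGK, AMDHD2 and EOGT, taken by symbol from the 20046 protein-coding genes of the GENCODE annotation of hg38. For each gene, a window was set that held the gene body and 100 kb on either side of the transcription start site (TSS), the TSS being the 5′ end of the gene. The listed regions that touched this window were counted. Of the 7130 regions listed as changed, 5 lay in the windows of these 10 genes.

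LX-2 is an established line of human hepatic stellate cells that behave as myofibroblasts, and all samples come from this single line. Control cultures received the vehicle DMSO and treated cultures 50 µM OSMI-1, an inhibitor of OGT (OGTi), both for 24 h. No culture carried an edited gene. H3K27ac is an acetylation of histone H3 found at active promoters and enhancers. It was measured by ChIP-seq in 8 of the 16 libraries, with 4 biological replicates in each arm. The other 8 libraries (input DNA and column purified chromatin) were not analysed here, though the study called its peaks against input DNA. The libraries came from bulk cultures, so that a change in every cell and a change in some of the cells cannot be told apart.

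The values used for the comparison were 2 lists of positions, 3623 regions that gained H3K27ac under OGTi and 3507 regions that lost it. Both carry an adjusted p threshold of 0.15 in their names. They contain neither signal nor fold change nor values per replicate, and the depth behind each region is unknown. Each gene was therefore described by whether a region was listed, where it lay and what else was there, and no replicate error or test can be attached to a gene. A gene without a listed region may have had H3K27ac that did not change, H3K27ac that changed below the threshold, or none, and these cannot be told apart in the 2 lists. Regions with unchanged H3K27ac were not used here. For the same reason the stellate cell identity of the line could not be checked against marker genes.

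O-GlcNAc is a single sugar that OGT attaches to serine and threonine residues of nuclear and cytoplasmic proteins and that OGA removes. Its donor, UDP-GlcNAc, is the end product of the hexosamine pathway, which takes up fructose-6-phosphate, glutamine, acetyl-CoA and UTP and thereby joins sugar, amino acid, lipid and nucleotide metabolism. Cells are known to adjust OGT and OGA to the level of the modification, and UDP-GlcNAc also feeds N-glycans, hyaluronan and other glycans.

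Within the windows of these genes, 5 gained regions and 0 lost regions were listed. A gained region was present for 4 of the 10 genes (40%), namely OGT, UAP1, AMDHD2 and EOGT, where 30.5% of all protein-coding genes had one. A lost region was present for 0 of the 10, where the share of all protein-coding genes was 21.6%. These counts depend on the window. With 250 kb on either side, 4 of the 10 genes (40%) had a lost region, beside 40.3% of all protein-coding genes. With the gene body alone, 2 of the 10 genes (20%) had a gained region, beside 10.9% of all protein-coding genes. With regions given to the nearest protein-coding TSS, 2 (20%) also had one, beside 10.7%. Gained regions without any lost one, the state of these 4 genes, were found for 23.3% of all protein-coding genes. The other 6 genes, OGA, GFPT1, GFPT2, GNPNAT1, PGM3 and NAGK, had no listed region of either kind, as did 55.1% of all protein-coding genes. The 10 genes had 0.5 gained regions each on average and all protein-coding genes 0.487. With 10 genes, each gene counts for 10 percentage points, and the share with a gained region lay within 1 gene of the background. The map of listed regions around the TSSs shows each of these positions.

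**Figure D1:**
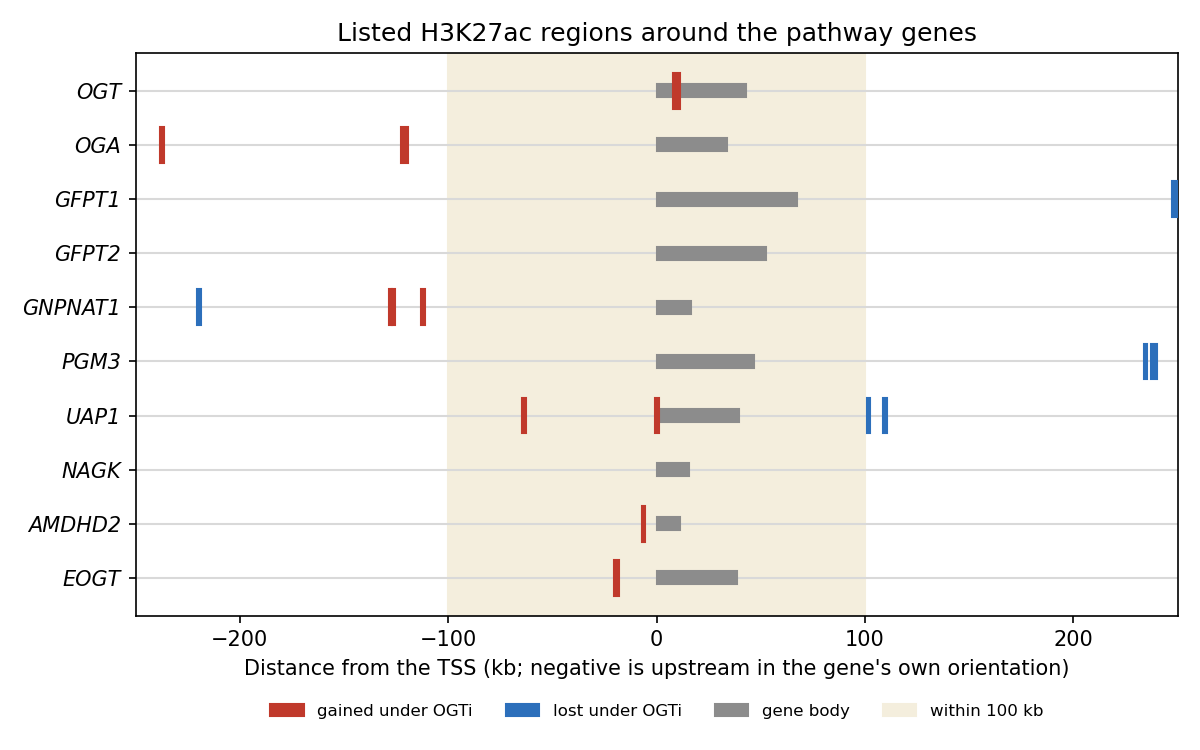
Listed H3K27ac regions around the TSS of each of the 10 genes, in kb from the TSS and turned so that upstream is to the left. Red bars are gained and blue bars lost regions (narrow ones are drawn at a minimum width), grey bars are gene bodies, and shading marks 100 kb on either side. Within the shading lie 5 gained regions, at OGT, UAP1 (2 regions), AMDHD2 and EOGT, and no lost region.

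OGT, the only enzyme that adds O-GlcNAc to nuclear and cytoplasmic proteins and the target of OSMI-1, gained H3K27ac inside the gene. OGT (ENSG00000147162.15) lies on the plus strand at chrX:71533087-71575892. Its 1 listed region, chrX:71540981-71544284, was 3304 bp wide, and 99% of the gained regions were narrower. Here and below, widths are those of single listed regions, and a wide peak can be listed as several abutting ones. The region in OGT began 7894 bp downstream of the TSS. It lay wholly within intron 3 of the canonical transcript with its 22 exons, 2908 bp after exon 3 and 282 bp before exon 4. The OGT promoter itself was in neither list. Of the 21 annotated OGT transcripts, OGT-214 begins closest to the region, 2542 bp from its edge, so that no annotated start fell inside it. At the level of gene bodies, 2 of the 10 genes (OGT and UAP1) contained a gained region, compared with 10.9% of all protein-coding genes, and 0 contained a lost one, compared with 6.66%. The nearest lost region to OGT was 496 kb away.

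The region in OGT is AT-rich, with 38.6% GC and a CpG observed/expected ratio of 0.224, where the medians over all gained regions were 46.1% and 0.247. It contained 5 matches to the AP-1 motif TGANTCA, N being any base, and 1 match to the composite ATF4-C/EBP motif TGATGCAA. At least 1 match to the AP-1 motif was found in 53.6% of gained and 56.5% of lost regions. At least 5 were found in 1.05% of gained regions, and in 8.51% of the 94 gained regions wider than 3000 bp. Matches to both motifs occurred together in 6.6% of gained regions. A stretch of 300 bases, plus strand of hg38, chrX:71541640-71541939, is shown because it holds both motifs. Capitals mark first the AP-1 and then the ATF4-C/EBP match.
OGT gained region: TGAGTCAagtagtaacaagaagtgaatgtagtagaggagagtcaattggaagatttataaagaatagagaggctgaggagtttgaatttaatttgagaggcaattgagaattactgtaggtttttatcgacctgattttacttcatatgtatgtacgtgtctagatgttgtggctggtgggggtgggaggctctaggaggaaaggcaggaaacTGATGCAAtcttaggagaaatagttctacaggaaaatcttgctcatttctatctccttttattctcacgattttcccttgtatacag
A match gives the letters only and was not measured as a bound site. The plot of the OGT gene shows where the matches lie in the region.

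**Figure D2:**
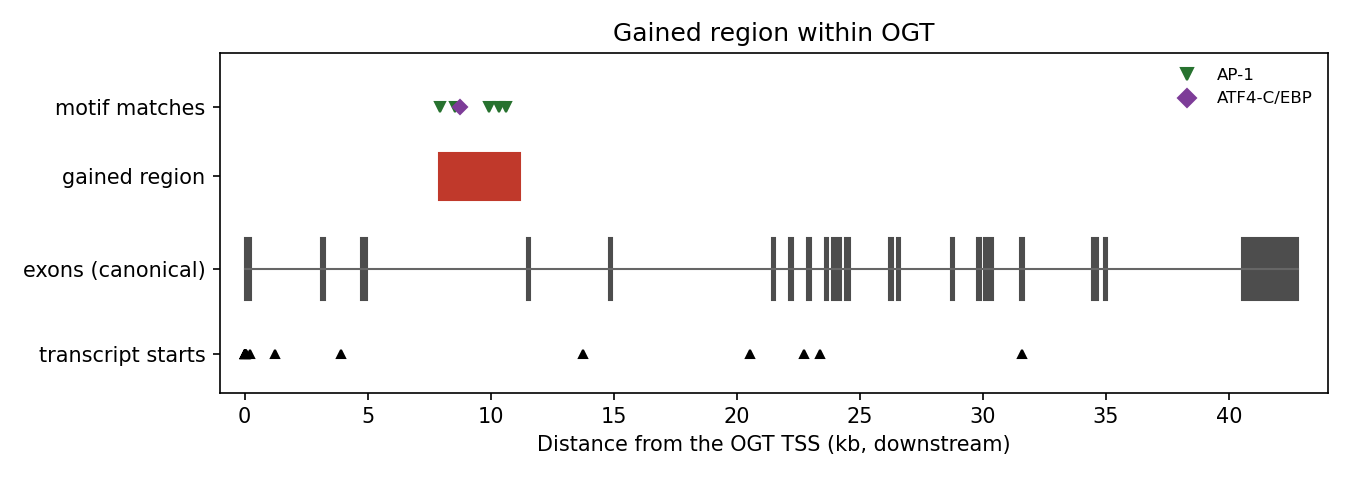
The OGT gene by distance from its TSS in kb, with exons of the canonical transcript (grey), the gained region (red), starts of the 21 annotated transcripts (black triangles) and motif matches in the region (green triangles AP-1, purple diamond ATF4-C/EBP). The region lies between exons 3 and 4, from 7.89 kb downstream of the TSS, and no transcript starts in it.

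OGA, the hydrolase that removes O-GlcNAc and so counteracts OGT, had no listed region in its window. OGA (ENSG00000198408.14) lies on the minus strand at chr10:101784443-101818465. The nearest gained region, chr10:101937658-101940999, was 119 kb upstream of its TSS, just outside the window, and 48% of all protein-coding genes had a listed region closer to their TSS. The nearest lost region was 957 kb away. Of the pair that writes and erases the mark, OGT alone was listed, and whether the change at OGT differed from that at OGA could not be tested on lists.

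Of the 5 genes that make UDP-GlcNAc, UAP1 alone had a listed region within its window. The others had none, as did 55.1% of all protein-coding genes. GFPT1 and GFPT2 (glutamine-fructose-6-phosphate transaminases) carry out the first and rate-limiting step, from fructose-6-phosphate and glutamine to glucosamine-6-phosphate. For GFPT1 (ENSG00000198380.13, chr2:69319780-69387250, minus strand), the nearest gained region lay 255 kb and the nearest lost region 247 kb from the TSS. For GFPT2 (ENSG00000131459.13, chr5:180300698-180353336, minus strand), these distances were 532 kb and 1076 kb. Neither gene thus had a listed region nearby, and 68.1% of all protein-coding genes for GFPT1 and 85.3% for GFPT2 had a closer one.

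GNPNAT1, which acetylates glucosamine-6-phosphate, and PGM3, the mutase that moves the phosphate to carbon 1, follow in the pathway. For GNPNAT1 (ENSG00000100522.10, chr14:52775193-52791668, minus strand), a narrow gained region at chr14:52903686-52903908 lay 112 kb upstream, and 3 gained regions and 1 lost region fell within 250 kb of the TSS. For PGM3 (ENSG00000013375.17, chr6:83147324-83193936, minus strand), a lost region was nearest, at 234 kb, with 2 lost and 0 gained regions within 250 kb. Its nearest gained region was 673 kb away.

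UAP1 (ENSG00000117143.14), the pyrophosphorylase of the last step that joins GlcNAc-1-phosphate to UTP, gained H3K27ac over its promoter. The gene lies on the plus strand at chr1:162561722-162601240. The gained region chr1:162560716-162562742, 2027 bp wide, extended 1006 bp upstream and 1020 bp downstream of the TSS and covered exon 1. It also covered the TSS of UAP1-DT, a lncRNA on the opposite strand, so that the region cannot be given to either direction of transcription alone. UAP1 was the 1 gene of the 10 with a gained region within 2500 bp of the TSS, where the share of all protein-coding genes was 6.39%, and 0 of the 10 had a lost region there, where it was 2.02%. When the starts of all annotated transcripts were used, the counts for the 10 genes stayed at 1 and 0. The shares of all protein-coding genes rose to 8.21% and 3.44%. The start of OGT-214, 2542 bp from the gained region in OGT, lay just outside this limit, so that the count of 1 depends on it.

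The UAP1 promoter region had 60.6% GC and a CpG observed/expected ratio of 0.721, above those of 84.7% and 80.5% of gained regions. It held 2 matches to the TEAD core CATTCC, a motif with at least 1 match in 58.8% of gained and 73.5% of lost regions. The 250 bases before the RefSeq start of UAP1, chr1:162561472-162561721 on the plus strand of hg38, lay wholly inside the region. They are shown as the only promoter of these genes under a listed region. None of the 8 motifs searched matched there, so that no letter is in capitals.
UAP1 promoter: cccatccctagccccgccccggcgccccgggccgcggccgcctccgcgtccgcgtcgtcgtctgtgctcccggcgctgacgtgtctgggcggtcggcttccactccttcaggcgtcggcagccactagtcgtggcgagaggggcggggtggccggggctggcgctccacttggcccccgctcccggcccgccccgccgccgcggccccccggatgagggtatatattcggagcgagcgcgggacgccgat
The sequence is a CpG-rich promoter, and the full RefSeq window of 300 bases had 76.7% GC and a CpG observed/expected ratio of 1.09, higher than 97% of the 35116 RefSeq promoters.

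A second gained region, chr1:162497766-162498534, entered the UAP1 window 63.2 kb upstream of the TSS. It was 769 bp wide, and 14.3% of gained regions were narrower. This region lay in UHMK1, a kinase gene, 515 bp from the UHMK1 TSS, and was thus counted for UAP1 by distance alone. Downstream of UAP1, 2 lost regions fell within 250 kb of the TSS, and the nearer of them, chr1:162662956-162664181, began 101 kb away, just outside the window. Of the 10 genes, UAP1 was therefore the closest to having both kinds of region, and the absence of a lost region in its window depends on the edge at 100 kb.

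On the salvage and return side of the pathway, AMDHD2 had a listed region upstream of its TSS and NAGK had none nearby. NAGK, the kinase that returns free GlcNAc to the pathway (ENSG00000124357.13, chr2:71064344-71079808, plus strand), was the most distant from any listed region, with the nearest gained region 921 kb and the nearest lost region 758 kb from its TSS. For 90.5% of all protein-coding genes a listed region was closer. AMDHD2, the deacetylase that turns GlcNAc-6-phosphate back into glucosamine-6-phosphate (ENSG00000162066.16, chr16:2520357-2531422, plus strand), had a gained region 5576 bp upstream, chr16:2513390-2514781, 1392 bp wide. That region covered the TSS of ATP6V0C, a subunit of the vacuolar proton pump, and that of the gene model ENSG00000259784, which runs on the same strand into AMDHD2. It also lay within the gene model ENSG00000260272, which ends where ATP6V0C ends. The AMDHD2 window is crowded, with 9 protein-coding TSSs beside its own, and the gained H3K27ac lay at a promoter other than the AMDHD2 promoter.

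The region at ATP6V0C was among the most GC-rich of its list, with 74.1% GC, higher than 99.2% of gained regions, and a CpG observed/expected ratio of 0.916. It held 1 match to the cyclic AMP response element TGACGTCA, found in 2.24% of gained and 1.17% of lost regions, and 1 match to the ETS motif CCGGAAG, found in 18% and 7.78%. The AMDHD2 promoter downstream of it, which was in neither list, is shown because it holds 4 E-boxes (CACGTG), the letters bound by MYC, USF and TFE3 type factors. The bases chr16:2520219-2520370, plus strand of hg38, run from behind the end of ATP6V0C to the base before the RefSeq start of AMDHD2, with the E-boxes in capitals.
AMDHD2 promoter: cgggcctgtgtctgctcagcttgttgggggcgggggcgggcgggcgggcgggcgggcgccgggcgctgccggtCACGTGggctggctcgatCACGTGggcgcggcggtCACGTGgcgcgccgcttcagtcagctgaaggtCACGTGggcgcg
At least 1 E-box was present in 7.26% of the 35116 RefSeq promoters and at least 4 in 5 of them (0.0142%). Since no listed region covered this promoter, its H3K27ac in either arm is not known from the lists.

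EOGT, which adds O-GlcNAc to EGF repeats of secreted and membrane proteins in the endoplasmic reticulum and is an enzyme distinct from OGT, had a gained region upstream. EOGT (ENSG00000163378.14) lies on the minus strand at chr3:68975217-69013684. The region, chr3:69031761-69034264, was 2504 bp wide, wider than 87.5% of gained regions, and 18077 bp upstream of the TSS. It lay within the body of TMF1, the next gene upstream on the same strand, and within the divergent lncRNA EOGT-DT. The TSS of TMF1 was 18075 bp from the other edge of the region, and measured from the centre the distances were 19326 bp for TMF1 and 19328 bp for EOGT. By distance the region thus belongs to neither gene more than to the other. The EOGT window held this 1 region, and the nearest lost region was 773 kb away.

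Like the region in OGT, the one upstream of EOGT was AT-rich, with 40.7% GC, higher than 27.3% of gained regions. Its CpG observed/expected ratio of 0.309 was higher than 60.3% of gained regions, where that of the OGT region was higher than 43.6%. The EOGT region contained 4 AP-1 matches. At least 4 were found in 3.62% of gained regions of all widths, and the EOGT region was wider than 87.5% of them. It also held 1 TEAD core and 1 match to the NRF1 motif GCGCATGC, found in 4.86% of gained and 2.2% of lost regions. The 300 bases chr3:69032339-69032638, plus strand of hg38, are shown because they hold a pair of the AP-1 matches close to each other, in capitals.
EOGT gained region: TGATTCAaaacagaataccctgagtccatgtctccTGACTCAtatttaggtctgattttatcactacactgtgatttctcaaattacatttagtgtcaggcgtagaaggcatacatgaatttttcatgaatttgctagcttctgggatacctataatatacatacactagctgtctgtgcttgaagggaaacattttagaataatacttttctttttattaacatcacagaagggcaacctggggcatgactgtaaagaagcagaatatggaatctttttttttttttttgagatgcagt
The pair differs in its middle base, which the motif leaves free.

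Across the 5 regions, the sequences thus fell into AT-rich regions with AP-1 matches away from any TSS (OGT and EOGT) and GC-rich regions at or near a TSS without AP-1 matches (UAP1, UHMK1 and ATP6V0C). AP-1 matches were found in 2 of the 5, as were the TEAD core and the ETS motif, and 1 region each had the ATF4-C/EBP, cyclic AMP response element and NRF1 motifs. The E-box and the unfolded protein response element TGACGTGG were found in 0 of the 5, and in 22.2% and 2.01% of gained regions. ATF4-C/EBP matches were found in 10.1% of gained and 4.36% of lost regions. All motifs were read on both strands, wider regions hold more matches by their length, and 5 regions are too few to compare such shares. Of the 10 promoters, 9 had a RefSeq entry and EOGT none. These 9 had a median CpG observed/expected ratio of 0.93 (range 0.704 to 1.09) compared with 0.579 over all RefSeq promoters. The lowest ratios, at OGA, PGM3 and GFPT2, were higher than 58.3%, 59.1% and 60% of RefSeq promoters. The median of the 9 is the value of NAGK, whose nearest RefSeq start lay 3952 bp from the TSS used here. For the others this offset was at most 61 bp (GNPNAT1). The ratio was 1.09 at UAP1, whose promoter was under a gained region, and 1.05 at both OGT and GFPT1, whose promoters were in neither list.

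Distances from the TSS to the nearest region described the same positions without a window. They were taken from the same lists and TSSs as the window counts, and so are no independent check of those counts. The median distance of the 10 genes to a gained region was 116 kb, compared with 235 kb over all protein-coding genes, and ran from 0 kb at UAP1 to 921 kb at NAGK. To a lost region the median was 429 kb, compared with 360 kb, and ran from 101 kb at UAP1 to 1076 kb at GFPT2. To a listed region of either kind it was 116 kb, compared with 129 kb. In this and the other comparisons between genes, all protein-coding genes were used, not matched in expression or promoter sequence. A gained region was nearer than a lost one for 7 of the 10 genes, the exceptions being GFPT1, PGM3 and NAGK, and for 59.8% of all protein-coding genes on chromosomes with both kinds of region. The genes just inside and outside the window were few. UAP1 at 63.2 kb was the outermost gained region inside, and lost H3K27ac at UAP1 (101 kb) and gained H3K27ac at GNPNAT1 (112 kb) and OGA (119 kb) came next outside.

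**Figure D3:**
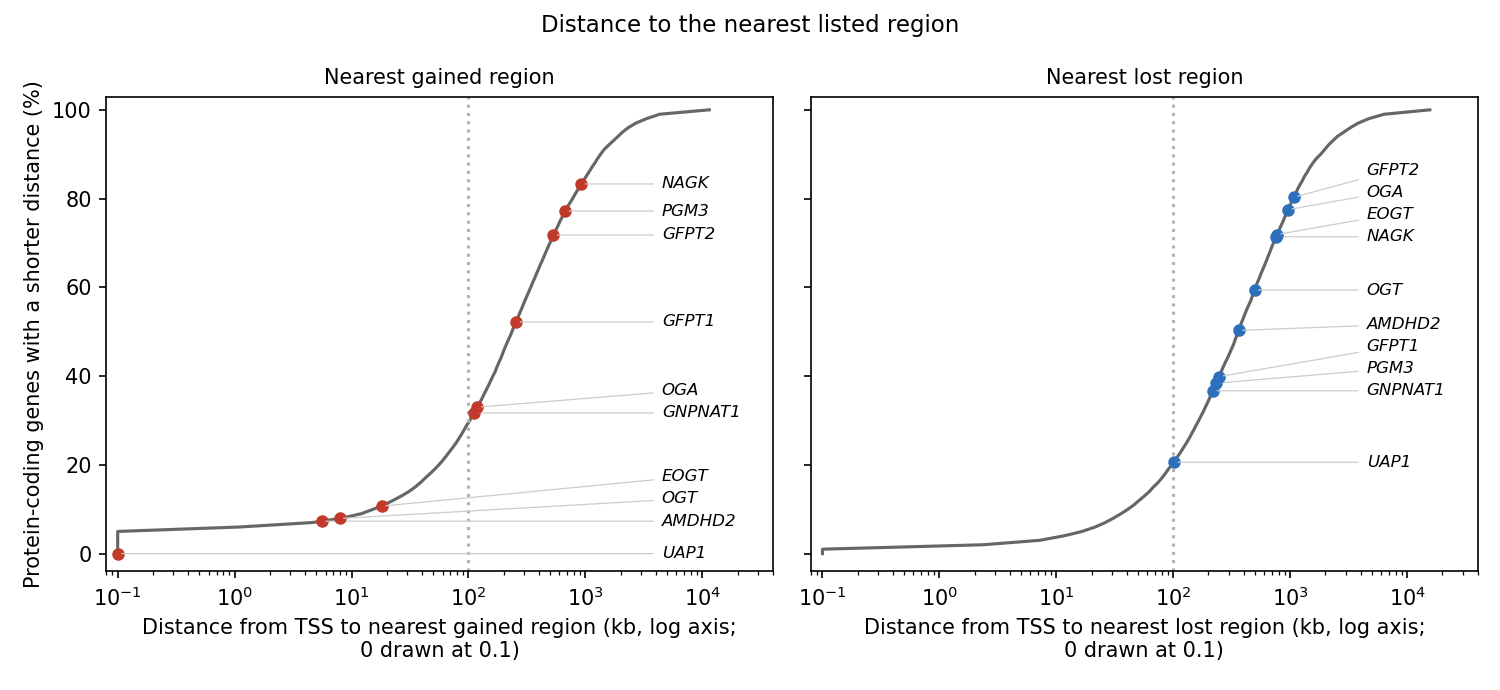
Distance from the TSS to the nearest gained (left) and nearest lost (right) region in kb on a log axis, against the percentage of protein-coding genes with a shorter distance. The grey line is all protein-coding genes, points are the 10 genes, and the dotted line marks 100 kb. For gained regions UAP1, AMDHD2, OGT and EOGT lie left of the dotted line, and for lost regions all 10 genes lie right of it.

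Genes around the pathway had regions of both kinds. The 4 lists set beside the 10 genes are described by counts alone, to be read beside the 30.5% of all protein-coding genes with a gained and the 21.6% with a lost region in the same window. Among 17 genes of precursor supply (glucose and glutamine uptake, the entry of both into the pathway, hexosamine recycling and nucleotide sugar transport), 9 had a gained region (52.9%) and 5 a lost one (29.4%). Among 15 enzymes that use or convert UDP-GlcNAc for N-glycans, GPI anchors, sialic acid and hyaluronan, 5 had a gained region (33.3%) and 2 a lost one (13.3%). Among 13 proteins known to bind OGT or OGA or to guide OGT to its substrates, 7 had a gained region (53.8%) and 5 a lost one (38.5%). Among 10 enzymes that glycosylate EGF repeats, as EOGT does, 3 had a gained region (30%) and 3 a lost one (30%).

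Over these 55 neighbouring genes, 18 had gained regions alone, 9 lost regions alone, 6 both and 22 neither. A gained region was therefore present for 43.6% and a lost region for 27.3% of them, beside 30.5% and 21.6% of all protein-coding genes. A promoter with gained H3K27ac, that is a region within 2500 bp of the TSS, was found for 5 of them. Among these were SLC1A5, a glutamine transporter, and GNPDA1, which deaminates glucosamine-6-phosphate back to fructose-6-phosphate. HAS2, a hyaluronan synthase, was another, as was HCFC1, a chromatin protein that OGT cleaves and binds. The gained regions covered the TSS of SLC1A5, GNPDA1 and HCFC1, and the one at HAS2 lay 1325 bp downstream of the TSS. At SLC1A5 and HCFC1 a second gained region abutted the first. The 1 promoter with a lost region was that of ASXL1, a partner of the deubiquitinase BAP1, with the region 1442 bp upstream. These 5 and 1 promoters amount to 9.09% and 1.82% of the 55 genes, beside 6.39% and 2.02% of all protein-coding genes. Regions shared by a pair of neighbouring genes numbered 6, of which 5 fell in the windows of both HCFC1 and RENBP on the X chromosome, so that the counts of these lists are not those of independent loci.

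**Figure D4:**
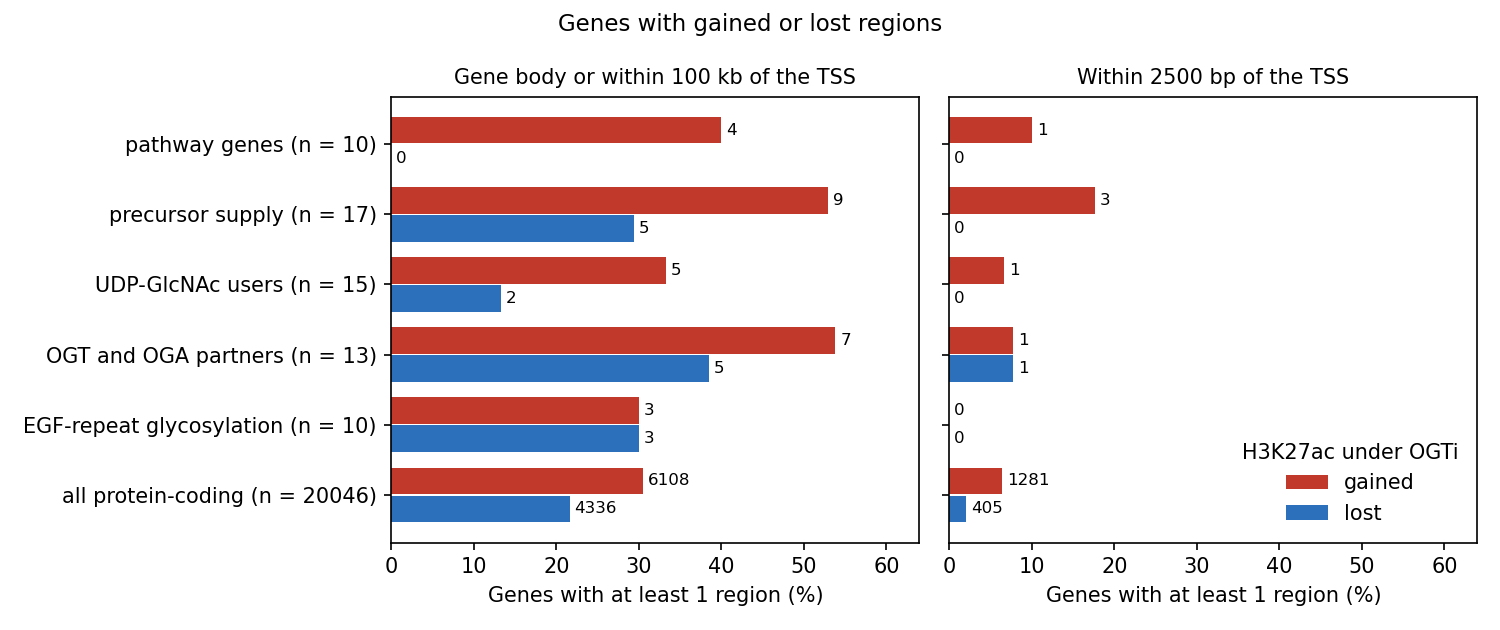
Percentage of genes with at least 1 gained (red) or lost (blue) region in the gene body or within 100 kb of the TSS (left) and within 2500 bp of the TSS (right), for the 10 pathway genes, the 4 neighbouring lists and all protein-coding genes. Numbers at the bars are genes. In the wider window, 4 of the 10 pathway genes had a gained region and 0 a lost one, beside 30.5% and 21.6% of all protein-coding genes.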

How the data were processed

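LX-2 cells received DMSO or 50 µM OSMI-1 for 24 h, and H3K27ac ChIP-seq was performed with 4 replicates in each arm. According to the methods of the study, reads were aligned to hg38 with Chromap, peaks were called in each replicate against input DNA with MACS2 (version 2.1.1.20160309 in the submitters' processing notes), and binned peaks were tested with MAnorm2 over all 8 libraries. The deposited lists, made by the authors, hold chromosome, start and end only, at the adjusted p of 0.15 in their names, and the methods text gives a stricter threshold. A wide peak can be listed as several abutting regions.

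Starts were converted to count from 1. Regions were overlapped with GENCODE release 44 by scripts in Python 3.11.15, checked on simulated data. Sequences came from hg38 and, for promoters (250 bases before to 50 after the start), from RefSeq tables on the same build. The text covers all 10 genes with each listed region in their windows, the protein-coding genes whose TSS lay nearer to such a region, and those genes of the 4 neighbouring lists with a region within 2500 bp of the TSS, of which 1 is not reported here. The genes, lists and motifs were chosen with earlier results of these data known. Other windows, region centres, joined regions and assignment to the nearest TSS were tried as alternatives.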

Additional observations from a re-analysis of the deposited data

How the results depend on the processing

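Of 30 alternative counts, 23 stayed within 1.5 times the reported ones and 7 did not. The reported counts of lost regions were 0 in the window of 100 kb. Settings confined to that window could therefore only give 0 again, and these unchanged counts are no check. With the gene body alone, 2 genes (OGT and UAP1) and 2 gained regions remained, and giving each region to the protein-coding gene with the nearest TSS also left 2 genes (OGT and UAP1) and 2 gained regions, beside 10.9% and 10.7% of all protein-coding genes. A window of 250 kb raised the gained regions to 10, at 6 genes (60%, beside 51.9% of all protein-coding genes), and gave 4 genes (GFPT1, GNPNAT1, PGM3 and UAP1) with 6 lost regions, where 40.3% of all protein-coding genes had a lost region. Windows of 50 kb, region centres, joined regions and the other TSS definitions kept every count within that range. No paired analysis was possible because values per replicate were not given with the listed positions, and leaving out single replicates was not run for the same reason. Depth limits which changes were listed, by an amount that the lists do not give.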
